A study of Mus musculus with 8 samples.

Results

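The genes described here are 10 genes of the unfolded protein response and of degradation from the endoplasmic reticulum (ER): Ern1, Xbp1, Atf6 and Creb3l3, which sense or transmit ER stress, Calr, Pdia4 and Sdf2l1, which help proteins fold, and Edem1, Sel1l and Herpud1, which act in degradation. They were chosen by function, with earlier results of these data known. Each was represented by its brightest probe set that carried 1 gene symbol. All 10 were measured, among 19937 genes on the arrays. Total RNA of 4 mouse liver tumours and 4 control livers was measured on Affymetrix mouse arrays, each sample on an array of its own. The tumours arose under liver-specific overexpression of human c-MYC, driven by the CEBPB-LAP promoter under doxycycline control, and were collected at the humane endpoint. The control livers were normal livers of matched mice. The labels do not give strain, age, sex or the doxycycline schedule, or whether the matched mice carried the transgene. Samples are numbered within their group, with no mouse named for any of them, and the spread behind each p-value is that between these arrays, which may in part be technical. Values are log2 intensities summarised by RMA, and 1 unit is a 2-fold difference.

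The ER is where secreted and membrane proteins fold, and hepatocytes, which release most plasma proteins, carry a heavy load of it. When unfolded proteins build up, the membrane sensors IRE1 (encoded by Ern1), PERK (Eif2ak3) and ATF6 are activated. IRE1 splices Xbp1 mRNA so that it yields an active transcription factor, PERK slows translation and favours ATF4, and ATF6 is cut to release a factor of its own. CREB3L3, also called CREBH, is a related membrane-bound factor of liver and intestine. Proteins that cannot be folded are handed to a membrane complex around SEL1L and the ligase HRD1 (Syvn1), moved to the cytosol and destroyed. Activation of the sensors takes place on protein and by splicing, and the arrays gave 1 mRNA level per gene, so neither was measured.

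In the tumours 7 of the 10 genes were lower than in control livers and none was higher. The comparison used limma across all genes with Benjamini-Hochberg adjustment and a threshold of 0.05. In the same fit 12.7% of all genes were lower and 16.2% were higher. Because the 10 were chosen with earlier results known, these shares give a scale and are no test of the group. At an unadjusted p of 0.05 the counts for the 10 genes were also 7 lower and 0 higher, and 17.8% of all genes were lower and 20.0% higher. The 7 lower genes were Edem1, Herpud1, Xbp1, Creb3l3, Sel1l, Ern1 and Pdia4, with log2 changes (tumours minus controls) from -1.21 to -0.50. Atf6, Calr and Sdf2l1 did not pass. The median log2 change was -0.57 for the 10 genes and -0.04 for all genes. All 4 tumours lay below all 4 controls for 6 of the 10, against 13.9% of all genes. A fall of at least 2-fold was seen for 1 of the 10, Edem1, and for 4.68% of all genes. In bulk tissue, fewer cells of a type and less RNA per cell cannot be told apart.

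**Figure D1:**
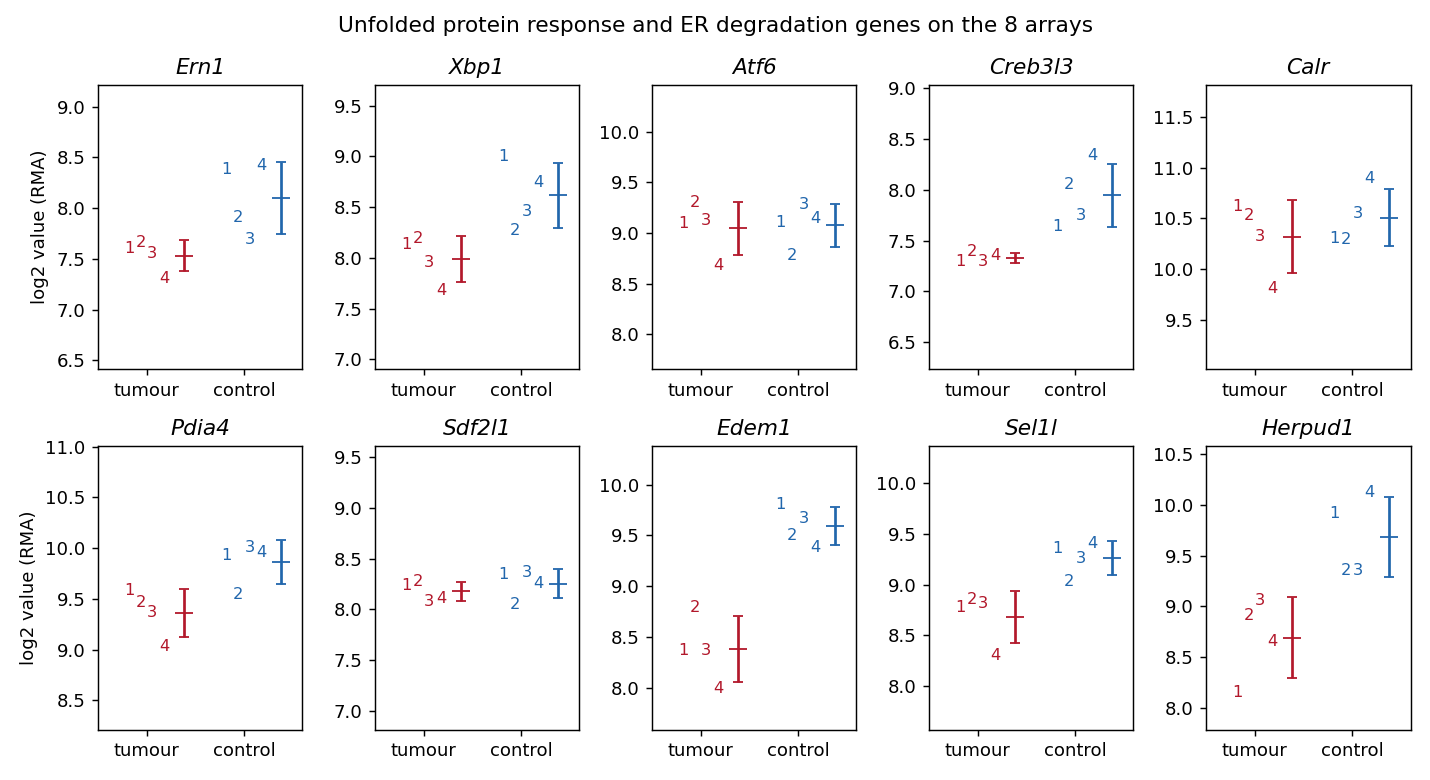
Log2 values of the 10 genes on each array, tumours left and controls right, with replicate numbers as symbols and the mean ± SD of 4 arrays beside them. Every panel spans the same range of log2 units. The groups are apart for Ern1, Xbp1, Creb3l3, Edem1, Sel1l and Herpud1, and overlap for the other 4 genes.

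The tissue labels were checked against cell type markers. All 7 measured hepatocyte markers were bright and all 7 were lower in tumours, with log2 changes from -1.11 for Ahsg to -0.33 for Ttr. Their median was -0.53, and that of the 10 ER genes was -0.57. The mean of the hepatocyte markers lay between 11.27 and 11.82 in tumours and between 12.15 and 12.40 in controls. Ttr, the transthyretin gene, was the brightest of them with 12.71 in tumours and 13.04 in controls. The highest value of any probe set was 13.56, and whether changes this near the top are understated was not tested. Plasma cells and exocrine pancreas are secretory tissues with a high level of these ER genes. Of 7 plasma and B cell markers 1 was lower and none higher, with list means of 5.32 to 5.52 in tumours and 5.42 to 5.63 in controls. Of 4 pancreatic acinar markers 1 was lower and none higher, with 6.37 to 6.64 in tumours and 6.62 to 7.04 in controls, where Cela1 was brightest. Endothelial markers were lower in 4 of 8 cases and higher in 1, stellate cell and fibroblast markers lower in 3 of 8 and higher in none, and macrophage markers lower in 2 of 8 and higher in 2. Of 5 bile duct markers 1 was higher and 1 lower. None of 7 T and NK cell markers or 6 neutrophil markers passed in limma, nor did any at an unadjusted p of 0.05. The T and NK list mean was 5.44 to 5.72 in tumours and 5.4 to 5.79 in controls. The median over all probe sets and arrays was 6.38, and markers this dim could hardly show a change. The neutrophil list mean reached 6.79 among controls and 5.91 among tumours, and S100a8 read 7.62 in control liver 1. The part of these cell types in the ER gene results was not tested.

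Among the sensors, Ern1 was lower in tumours. Ern1 encodes IRE1 alpha, the kinase and endoribonuclease that splices Xbp1. Tumours 1 to 4 read 7.60, 7.66, 7.55 and 7.31, against 8.38, 7.91, 7.69 and 8.42 in control livers 1 to 4. The groups did not overlap, but tumour 2 and control liver 3 were only 0.03 apart. Ern1 averaged 7.53 ± 0.15 in tumours and 8.10 ± 0.36 in controls (SD, n = 4 each), a log2 change of -0.57 (SE 0.17, adjusted p = 0.0275 in limma). This call was lost in 6 of 15 alternative settings, with adjusted p up to 0.0744 in limma. The arrays whose removal ended it were tumours 1, 3 and 4 (adjusted p = 0.0512, 0.0585 and 0.0700 in limma) and control livers 1 and 4 (0.0744 and 0.0709).

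Xbp1, the transcription factor gene whose mRNA IRE1 splices, was lower as well. It read 8.13, 8.19, 7.95 and 7.68 in tumours 1 to 4, against 9.0, 8.27, 8.46 and 8.74 in control livers 1 to 4. All tumours were below all controls, with tumour 2 and control liver 2 closest at a distance of 0.08. The means were 7.99 ± 0.23 in tumours and 8.62 ± 0.32 in controls (SD, n = 4 each), and the log2 change of -0.63 (SE 0.17, adjusted p = 0.0175 in limma) is a 1.55-fold lower level. The call held in all 15 alternatives, with changes from -0.75 to -0.50. The probe set gave a single level, so spliced and unspliced Xbp1 were not told apart.

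Atf6, which encodes the sensor that is cleaved in the Golgi, did not pass. It read 9.09, 9.30, 9.12 and 8.68 in tumours, against 9.10, 8.78, 9.28 and 9.14 in controls, and the ranges overlapped almost fully. The log2 change was -0.03 with a 95% confidence interval from -0.36 to 0.31 (adjusted p = 0.924 in limma). Its sign turned with array weights (0.02), without tumour 4 (0.09) and without control liver 3 (0.04).

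Creb3l3 was lower, with little spread among the tumours. Its protein is a liver factor of lipid metabolism and of the acute phase response. The 4 tumours read 7.29, 7.39, 7.29 and 7.35, against 7.64, 8.05, 7.75 and 8.34 in control livers 1 to 4. The tumours lay within 0.1 of each other and all below the controls, which varied more. The means were 7.33 ± 0.05 in tumours and 7.94 ± 0.32 in controls (SD, n = 4 each), with a log2 change of -0.61 (SE 0.15, adjusted p = 0.00894 in limma), or 1.53-fold lower. The call held in all 15 alternatives.

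The third sensor gene, Eif2ak3, is not among the 10 and moved the other way. Eif2ak3, which encodes PERK, read 7.66, 7.82, 7.75 and 7.44 in tumours, against 7.33, 7.0, 7.25 and 7.49 in controls. Tumour 4 lay below control liver 4, and the other tumours above all controls. The log2 change was 0.40 (SE 0.13, adjusted p = 0.0377 in limma). It lost its call in 9 of 15 alternatives, with adjusted p up to 0.103. Both scaling alternatives ended it, quantile normalisation (adjusted p = 0.0530 in limma) and subtraction of array medians (0.0535), and so did leaving out any 1 of 6 arrays: tumours 1 to 3 and control livers 1 to 3 (0.0568 to 0.101). Of 10 measured genes in a wider list of sensors and activators, 3 were lower (Ern1, Xbp1 and Creb3l3) and 1 higher (Eif2ak3), with a list median of -0.02. The 3 lower genes are among the 10 described here, and of the 6 other genes in the list none was lower. Among all genes 12.7% were lower and 16.2% higher. The paralogs Atf6b, Creb3, Creb3l1 and Creb3l2 did not pass.

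Among folding factors, Pdia4 was lower. Pdia4 encodes ERp72, a protein disulfide isomerase that forms and rearranges disulfide bonds. It read 9.58, 9.46, 9.37 and 9.03 in tumours 1 to 4, against 9.93, 9.54, 10.01 and 9.96 in control livers 1 to 4. Control liver 2 fell among the tumours, just below tumour 1, so the groups overlapped. The means were 9.36 ± 0.23 in tumours and 9.86 ± 0.21 in controls (SD, n = 4 each), with a log2 change of -0.50 (SE 0.14, adjusted p = 0.0258 in limma). The call was lost in 8 of 15 alternatives. Without tumour 3 or 4 or control liver 1, 3 or 4 the adjusted p was 0.0534 to 0.0677 in limma, and with subtraction of array medians it was 0.0542. A second, dimmer probe set of Pdia4 read 5.54 to 5.96 in tumours and 5.65 to 6.18 in controls, a difference of -0.23. With the mean of both probe sets the adjusted p was 0.0550 in limma.

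Calr and Sdf2l1 did not pass. Calr, the calcium-binding lectin chaperone calreticulin, read 10.62, 10.53, 10.32 and 9.81 in tumours, against 10.30, 10.29, 10.55 and 10.89 in controls. Tumour 4 was lowest of all arrays and control liver 4 highest, with the others mixed (log2 change -0.19, 95% interval -0.62 to 0.24, adjusted p = 0.534 in limma). Sdf2l1, a partner of the ER chaperone BiP and of its J proteins, read 8.24, 8.28, 8.08 and 8.11 in tumours, against 8.34, 8.05, 8.36 and 8.26 in controls. Its SD was small in both groups, 0.09 in tumours and 0.14 in controls. The interval for Sdf2l1 ran from -0.31 to 0.15 around a log2 change of -0.08 (adjusted p = 0.643 in limma), so a change as large as that of Xbp1 lies outside it.

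The wider list of 25 ER folding factors held these 3 genes. In it 5 genes were lower and 1 higher, with a median log2 change of -0.09 against -0.04 for all genes. The shares of all genes were 12.7% lower and 16.2% higher. The count of lower genes was 8 after quantile normalisation. Hspa5, which encodes BiP, the main Hsp70 of the ER and the usual marker of the response, read 11.21, 11.07, 10.95 and 10.79 in tumours, against 11.04, 10.68, 11.21 and 11.17 in controls. Its groups overlapped and the log2 change was -0.02 (95% interval -0.33 to 0.29, adjusted p = 0.940 in limma). The falls were led by Ero1b and Dnajb9. Ero1b, an oxidase that recharges disulfide isomerases, fell to 7.69 ± 0.17 in tumours, against 9.54 ± 0.46 in controls (SD, n = 4 each), a log2 change of -1.85 (SE 0.20, adjusted p = 5.92e-05 in limma). Its paralog Ero1a, which is induced by hypoxia, was the 1 higher gene with 9.40 ± 0.25 in tumours and 8.5 ± 0.18 in controls (SD, n = 4 each; log2 change 0.90, SE 0.14, adjusted p = 0.000715 in limma). Dnajb9 encodes ERdj4, a BiP co-chaperone and XBP1 target that also restrains IRE1. It read 7.97 to 8.78 in tumours and 9.60 to 10.12 in controls, a 3.03-fold lower level (log2 change -1.60, SE 0.17, adjusted p = 5.72e-05 in limma). Sil1, a nucleotide exchange factor of BiP, changed by -0.59 (SE 0.11, adjusted p = 0.00176 in limma).

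**Figure D2:**
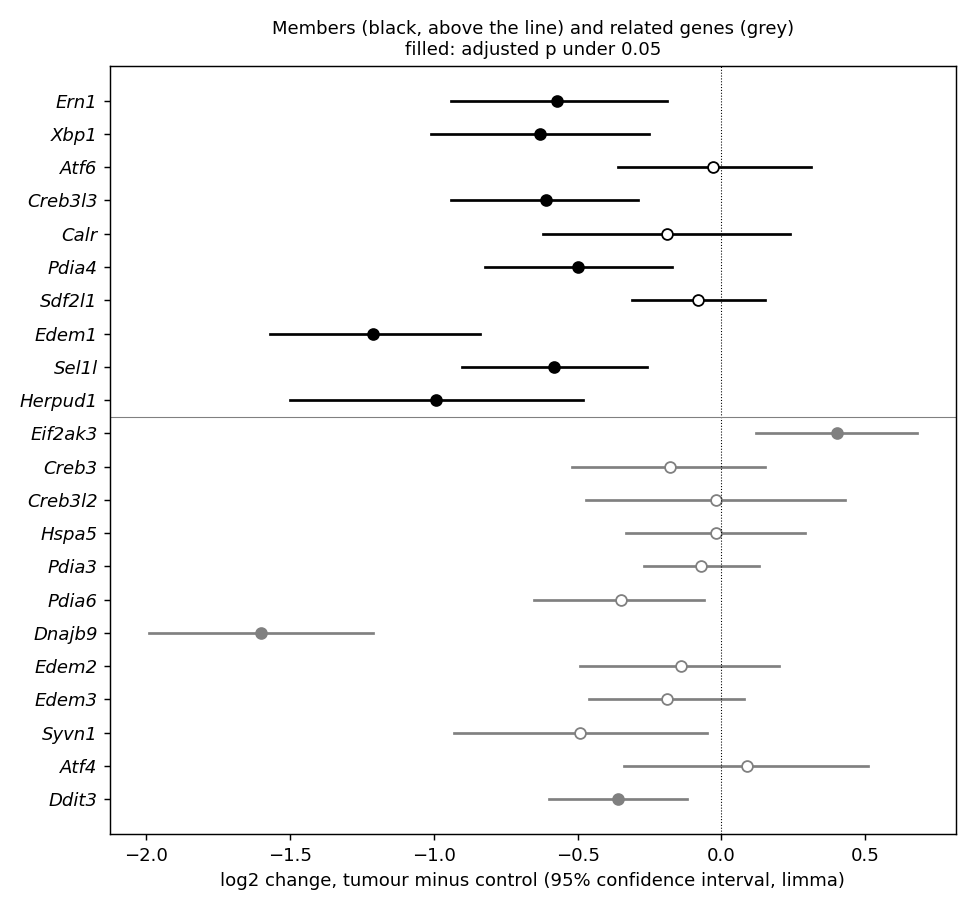
Log2 change (tumours minus controls) with 95% confidence intervals from limma, for the 10 genes in black above the line and 12 related genes in grey below it, filled where adjusted p was under 0.05. Edem1 (-1.21) and Herpud1 (-0.99) lie farthest left among the 10, Dnajb9 (-1.60) lies farther left below the line, and Eif2ak3 (0.40) is the 1 filled point to the right of 0.

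The degradation genes Edem1, Herpud1 and Sel1l were all lower. Edem1 encodes a mannosidase-like protein that marks misfolded glycoproteins for disposal. It read 8.37, 8.79, 8.37 and 7.99 in tumours 1 to 4, against 9.81, 9.50, 9.67 and 9.38 in control livers 1 to 4. A gap of 0.59 lay between the highest tumour and the lowest control, the widest among the 10 genes. The means were 8.38 ± 0.33 in tumours and 9.59 ± 0.19 in controls (SD, n = 4 each). The log2 change of -1.21 (SE 0.16, adjusted p = 0.000266 in limma), a 2.31-fold lower level, stayed between -1.35 and -1.08 in the 15 alternatives and passed in each.

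Herpud1, which encodes HERP, a membrane protein of the degradation complex, read 8.15, 8.91, 9.06 and 8.65 in tumours 1 to 4, against 9.92, 9.35, 9.35 and 10.12 in control livers 1 to 4. The groups were 0.29 apart, and arrays varied within both, with an SD of 0.40 in each. The log2 change was -0.99 (SE 0.23, adjusted p = 0.00779 in limma), a 1.99-fold lower level, and it passed in all 15 alternatives. Sel1l, the scaffold of the HRD1 ligase, read 8.77, 8.85, 8.81 and 8.30 in tumours, against 9.36, 9.03, 9.26 and 9.41 in controls. Tumours 1 to 3 lay close together and tumour 4 well below them. Sel1l averaged 8.68 ± 0.26 in tumours and 9.26 ± 0.17 in controls (SD, n = 4 each), a log2 change of -0.58 (SE 0.14, adjusted p = 0.0109 in limma), and without tumour 4 the change was -0.45 and still passed.

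Promoters were searched for the DNA elements through which ATF6 and XBP1 are known to act. The ER stress element is CCAAT and CCACG with 9 bases between them, ER stress element II is ATTGG and CCACG with 1 base between them, and the core of the unfolded protein response element is TGACGTGG. Both strands were searched in RefSeq windows from 250 bases before to 50 after each start (GRCm38.p6), which 9 of the 10 genes had. The first element was found in Calr, the second in Herpud1, and the third in none of the 9. Of all 27025 genes with a window, 0.137%, 0.0444% and 0.714% had these elements. Of the other measured genes of the pathway lists, 81 had a window, and the first element was in 9 of them. These were Ero1b among the 18 that were lower, none of the 9 that were higher, and 8 of the 54 that did not pass, Hspa5 and Syvn1 included. Among the 81 the second element was in 1 gene and the third in 6. The shorter CCACG is contained in both stress elements and, on the opposite strand, in the response element core. It was in 8 of the 9 genes and in 35.5% of all genes with a window. Among the 81 other pathway genes it was in 51. These were 8 of the 18 that were lower, 7 of the 9 that were higher and 36 of the 54 that did not pass. The windows of the 9 genes had a median GC content of 62.8% and all windows 52.7%. The 250 bases before the start are given 5′ to 3′ on the gene's strand, with the element in capitals, for Herpud1 and Ero1b, which were lower, for Calr and Hspa5, which did not pass, and for Edem1, the largest fall of the 10, which had none of the 3 elements.
Herpud1, chr8:94386179-94386428 (+ strand): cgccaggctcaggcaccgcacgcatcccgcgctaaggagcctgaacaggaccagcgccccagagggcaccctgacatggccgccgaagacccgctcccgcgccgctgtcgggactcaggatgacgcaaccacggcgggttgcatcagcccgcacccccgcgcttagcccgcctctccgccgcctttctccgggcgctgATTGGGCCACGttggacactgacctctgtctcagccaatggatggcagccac
Ero1b, chr13:12565633-12565882 (+ strand): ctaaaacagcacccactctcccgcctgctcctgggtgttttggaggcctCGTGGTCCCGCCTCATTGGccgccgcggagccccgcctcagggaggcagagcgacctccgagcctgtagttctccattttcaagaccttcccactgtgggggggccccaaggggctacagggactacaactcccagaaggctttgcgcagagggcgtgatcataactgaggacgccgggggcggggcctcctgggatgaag
Calr, chr8:84846932-84847181 (- strand): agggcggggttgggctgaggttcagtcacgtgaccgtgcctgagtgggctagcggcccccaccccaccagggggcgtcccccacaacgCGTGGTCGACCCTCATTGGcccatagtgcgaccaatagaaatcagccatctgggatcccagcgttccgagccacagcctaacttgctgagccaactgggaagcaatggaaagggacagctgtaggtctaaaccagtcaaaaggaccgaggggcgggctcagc
Hspa5, chr2:34771840-34772089 (+ strand): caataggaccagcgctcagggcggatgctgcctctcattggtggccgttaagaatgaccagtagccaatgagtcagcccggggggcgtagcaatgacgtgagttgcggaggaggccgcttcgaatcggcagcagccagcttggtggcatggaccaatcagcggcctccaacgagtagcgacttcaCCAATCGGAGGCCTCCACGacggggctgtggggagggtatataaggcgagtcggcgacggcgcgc
Edem1, chr6:108828391-108828640 (+ strand): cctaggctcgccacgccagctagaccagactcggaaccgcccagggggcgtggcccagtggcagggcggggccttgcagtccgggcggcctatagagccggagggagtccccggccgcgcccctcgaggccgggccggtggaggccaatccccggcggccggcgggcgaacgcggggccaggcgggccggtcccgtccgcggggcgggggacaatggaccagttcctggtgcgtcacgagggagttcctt
In Herpud1 the element lies at bases -52 to -42 from the start. In Ero1b it lies on the opposite strand at -201 to -183, in Calr on the opposite strand at -162 to -144, and in Hspa5 at -65 to -47. An element was thus present in genes that were lower and in genes that did not pass. A match describes letters in this window and does not show binding.

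Around these genes, 25 genes of ER-associated degradation were measured, and 9 were lower and none higher, with a median log2 change of -0.21. The shares of all genes were 12.7% lower and 16.2% higher. At an unadjusted p of 0.05 there were 12 lower and 0 higher. Besides Edem1, Herpud1 and Sel1l, 6 of 22 others were lower. Os9, a lectin that delivers glycoproteins to SEL1L, read 7.19 to 7.90 in tumours and 8.48 to 9.28 in controls (log2 change -1.12, SE 0.20, adjusted p = 0.00161 in limma). Derl2, a derlin of the export channel, changed by -0.89 (SE 0.22, adjusted p = 0.00994 in limma), and Erlec1, another lectin, by -0.66 (SE 0.14, adjusted p = 0.00474 in limma). For all 3 the groups did not overlap. Syvn1, the HRD1 ligase itself, read 8.18, 7.92, 7.85 and 7.95 in tumours, against 8.20, 8.0, 8.64 and 9.01 in controls. Control liver 2 lay within the range of the tumours, and the other controls lay above it. The log2 change of -0.49 did not pass (SE 0.20, adjusted p = 0.0951 in limma). Syvn1 did pass as lower in 2 of 15 alternatives. Quantile normalisation gave this call (adjusted p = 0.0437 in limma), as did removing control liver 2 (0.0279).

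Differences between related genes were tested directly with a two-sided exact permutation test of the within-array difference, for 10 pairs chosen after their values had been seen. With 4 arrays against 4 the smallest possible p is 0.0286, and 5 of the 10 pairs reached it. After Benjamini-Hochberg adjustment over the 10 pairs those 5 had 0.0571, so none passed 0.05. The change of Edem1 was lower than that of its paralogs Edem2 and Edem3, by differences of -1.07 and -1.02 (exact p = 0.0286 for each). Ern1 and Eif2ak3 differed by -0.97, Creb3l3 and Creb3l2 by -0.59, and Pdia4 and Pdia3 by -0.42, at the same exact p. The exact p was larger between Ern1 and Atf6 (-0.54, exact p = 0.114), Creb3l3 and Creb3 (-0.43, exact p = 0.0857) and Pdia4 and Pdia6 (-0.14, exact p = 0.0571). Herpud1 and Sel1l differed from Syvn1 by -0.50 (exact p = 0.200) and -0.09 (exact p = 0.600).

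The list of the PERK branch had 8 measured genes, Eif2ak3 included, and a median log2 change of 0.02. Eif2ak3 was its 1 higher gene, where 16.2% of all genes were higher and 12.7% lower. Of the 7 others Ddit3 was lower and none was higher in limma, also at an unadjusted p of 0.05, and their median log2 change was 0.01. Atf4, the transcription factor whose translation PERK favours, read 7.88, 7.70, 7.78 and 7.21 in tumours, against 7.46, 7.44, 7.27 and 8.06 in controls (log2 change 0.09, SE 0.19, adjusted p = 0.800 in limma). Ddit3, which encodes the death-promoting factor CHOP, read 7.51, 7.79, 7.51 and 7.44 in tumours, against 7.82, 7.95, 7.86 and 8.07 in controls. Its groups were 0.03 apart and its log2 change was -0.36 (SE 0.11, adjusted p = 0.0289 in limma). The Ddit3 call was lost in 6 of 15 alternatives, among them those without tumour 1, 3 or 4 or control liver 2 or 4 (adjusted p 0.0603 to 0.0780 in limma).

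Among genes of entry into the ER and export from it, more were higher than lower. Of 30 measured 8 were higher and 2 lower, with a median log2 change of 0.21. Of all genes 16.2% were higher and 12.7% lower, with a median of -0.04. Ostc and Stt3b, of the oligosaccharyltransferase that attaches sugar chains to entering proteins, rose by 1.01 (SE 0.17, adjusted p = 0.000998 in limma) and 0.76 (SE 0.13, adjusted p = 0.00104). Ostc read 11.20 to 11.51 in tumours and 9.92 to 10.68 in controls. Ssr2, of the translocon-associated complex, rose by 0.85 (SE 0.23, adjusted p = 0.0168 in limma), with tumour 4 below control liver 4. The Ssr2 call was lost without tumour 1 or 3 or control liver 2 (adjusted p at most 0.0520 in limma). The lower genes were Sec63 and Sec62, which assist the translocon, at -0.63 (SE 0.10, adjusted p = 0.000646 in limma) and -0.35 (SE 0.09, adjusted p = 0.0137). The difference between this list and the degradation list was not tested.

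**Figure D3:**
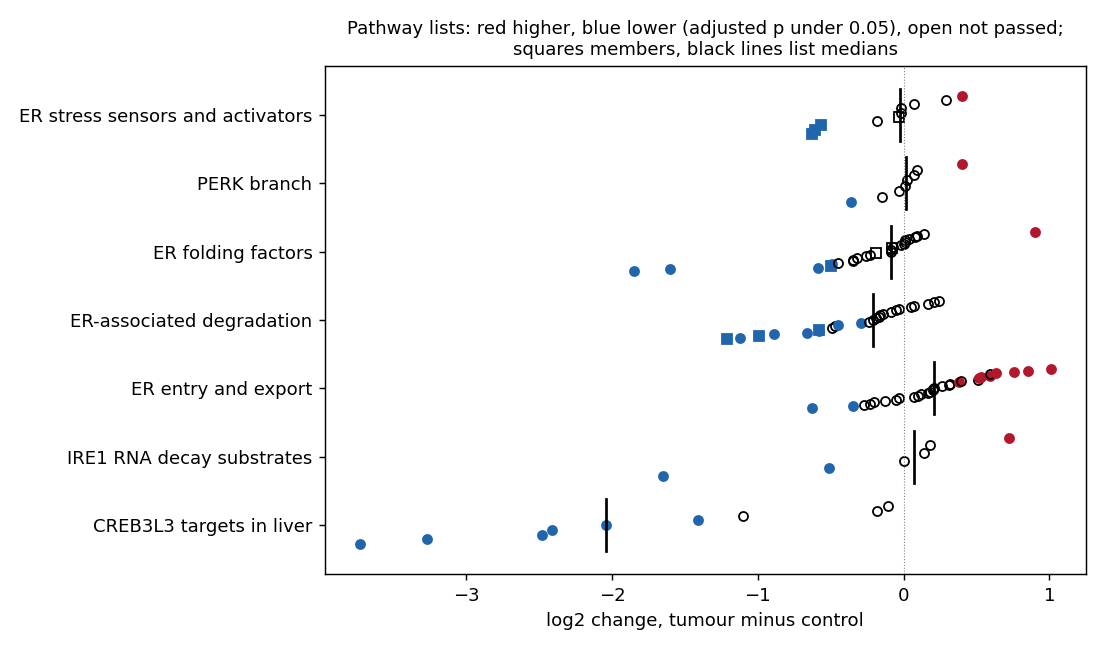
Log2 change (tumours minus controls) of every measured gene in 7 lists, red where higher and blue where lower at an adjusted p under 0.05 in limma, open where it did not pass. Squares are the 10 genes and black lines are list medians, which run from 0.21 for ER entry and export to -2.04 for CREB3L3 targets.

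mRNAs that IRE1 cleaves outside Xbp1, described in mouse and other mammalian cells, were measured for 6 genes, of which 2 were lower and 1 higher. Of all genes 12.7% were lower and 16.2% higher. Hgsnat, a lysosomal acetyltransferase gene, read 6.60 to 7.24 in tumours and 8.41 to 8.79 in controls (log2 change -1.65, SE 0.16, adjusted p = 2.28e-05 in limma). Bloc1s1, of lysosome positioning, changed by -0.51 (SE 0.11, adjusted p = 0.00392 in limma), and its groups did not overlap. Sparc, a matrix protein of mesenchymal cells, was the higher one at 0.72 (SE 0.23, adjusted p = 0.0365 in limma), with overlapping groups and a call lost in 8 of 15 alternatives. These were quantile normalisation (adjusted p = 0.0531 in limma), the replicate number as a block (0.0602) and leaving out tumour 1, 3 or 4 or control liver 1, 2 or 3 (0.0553 to 0.0998).

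Genes described as CREB3L3 targets in liver were lower in 6 of 9 cases and higher in none, with a median log2 change of -2.04. At an unadjusted p of 0.05 there were 7 lower and 0 higher. Of all genes 12.7% were lower at the adjusted threshold and 17.8% at the unadjusted one. Apoa5, an apolipoprotein that aids clearance of triglycerides, read 6.89, 7.12, 7.43 and 7.06 in tumours, against 10.69, 10.85, 10.82 and 11.05 in controls. All tumours were more than 3 log2 units below all controls, and the level was 13.2-fold lower (log2 change -3.73, SE 0.13, adjusted p = 2.65e-08 in limma). Pck1, of gluconeogenesis, changed by -3.27 (SE 0.42, adjusted p = 0.000170 in limma) and Apcs, the serum amyloid P gene, by -2.48 (SE 0.55, adjusted p = 0.00572). Fgf21, a hormone of the fasted liver, read 5.72 to 5.90 in tumours and 5.62 to 6.26 in controls and did not pass (log2 change -0.11, adjusted p = 0.616 in limma). Every array read Fgf21 below 6.38, the median over all probe sets and arrays, so a fall could hardly show. G6pc (log2 change -1.1, adjusted p = 0.0802 in limma) and Cidec (-0.18, adjusted p = 0.275) did not pass either. The hepatocyte markers above were lower on the same arrays, and their part in these values was not tested.

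The arrays did not contribute evenly. Tumour 4 was the lowest tumour for 7 of the 10 genes, and for 24.5% of all genes. This was not particular to the 10. Tumour 4 was also lowest for all 7 hepatocyte markers and for most genes of the folding, degradation and entry and export lists. Among these were Ostc, Stt3b and Ssr2, which were higher in tumours. Control liver 4 was the highest control for 5 of the 10, and for 22.6% of all genes. The 10 genes varied more among arrays of a group than genes in general, with a median SD of 0.25 in tumours and 0.25 in controls, against 0.17 in tumours and 0.16 in controls for all genes. Each of the 10 was brighter on average than at least 75.2% of all genes, and their SD was not compared with that of equally bright genes. Leaving out 1 array at a time left 5 to 7 of the 10 genes lower and none higher. Edem1, Herpud1, Xbp1, Creb3l3 and Sel1l passed without any 1 of the 8 arrays, whereas Ern1 and Pdia4 did not pass without tumour 4.

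**Figure D4:**
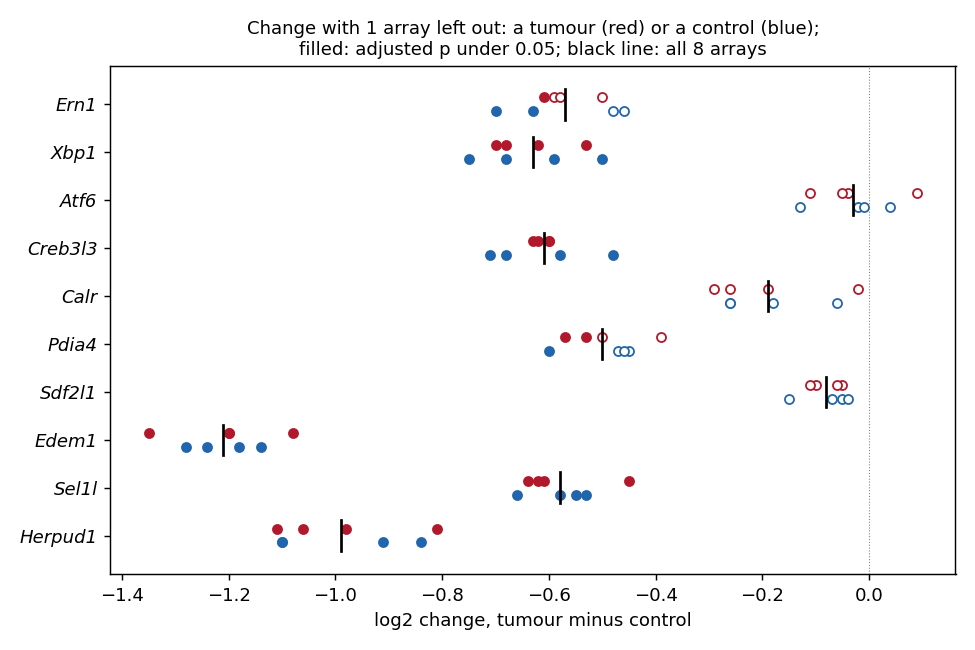
Log2 change (tumours minus controls) of each of the 10 genes with 1 array left out, a tumour in red or a control in blue, filled where adjusted p was under 0.05 in limma, and with all 8 arrays as a black line. Points stay left of -0.4 for Edem1, Herpud1, Xbp1, Creb3l3 and Sel1l, and lie on both sides of 0 for Atf6.

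The genes with the profile most like that of Edem1, the gene with the largest change among the 10, were Slc35e2, Hspa13 and Gphn. Likeness was the root mean square difference over the 8 arrays after each gene's own mean was subtracted. It was 0.117 for Slc35e2, 0.128 for Hspa13 and 0.136 for Gphn on the log2 scale. Their log2 changes were -1.17 (SE 0.14), -1.25 (SE 0.17) and -1.18 (SE 0.17), and tumour 4 was the lowest tumour for all 3, as it was for Edem1.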

How the data were processed

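The authors deposited log2 values, made with RMA in R 3.0.2 per the submitters' processing notes. The settings, level of summarisation and genome build are not given in the sources used here. The values were used as deposited, for 34760 probe sets with array medians of 6.33 to 6.44. Platform annotation gave 21640 probe sets 1 symbol each, 1321 had several symbols and were not used, and 21553 were matched by gene identifier to RefSeq names. The brightest probe set per gene left 19937 genes. These entered a fit in limma 3.58.1 (R 4.3.3) that held only the group, with no filter on low values and p-values adjusted over all genes. The 10 genes and all lists were chosen with earlier results of these data known. Of 120 genes in the 7 pathway lists, counting repeats, 113 were measured; 3 of the others share a probe set with another gene, and none of the 7 was analysed here. Named list genes were the 3 largest changes in each direction past the threshold per list, plus Hspa5, Eif2ak3, Atf4, Ddit3, Syvn1 and Dnajb9. Fgf21, G6pc, Cidec and S100a8 were named after their values were seen. On simulated data 50 genes were changed at each size tried, among 19937. The fit recovered 32% of those changed by 0.5 log2 units and 88% of those changed by 1. It made 168 calls there, while tumours against controls gave 3225 higher and 2532 lower genes. Recovery with that many changed genes was not tested. Alternatives were quantile normalisation, subtraction of array medians, leaving out the dimmest 33.3% of genes (which kept all 10), array weights, a robust variance with intensity trend, a replicate block, probe sets averaged per gene, and leaving out each array. Precision is limited by the number of arrays. Tables and figures were made with Python 3.11.15, pandas 2.3.3 and matplotlib 3.10.9.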

Additional observations from a re-analysis of the deposited data

Results flagged for a closer look

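Sel1l in tumour 4 read 8.30, while the other 3 tumours read 8.77 to 8.85, a gap large enough against the range of the group to stand out by Dixon's test. Chance gives such a gap in about 1 of 20 groups of 4, and 20 groups were examined for the 10 genes.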

How the results depend on the processing

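No member of the 10 became higher under any of the 15 alternatives, and 5 to 7 were lower in each, with 5 when the replicate number was a block and 5 to 7 without 1 array. The groups of 6 or 7 of the 10 genes did not overlap in the alternatives that change values or arrays. Same-numbered tumours and controls correlated between -0.320 and 0.055 in their deviations from group means, and none correlated best with its own number. Such correlations cannot show whether samples were paired, and the labels do not say. The replicate block ended the calls of Ern1 (adjusted p = 0.0529 in limma), Pdia4 (0.0525), Ddit3, Eif2ak3, Sparc and Sec62. Higher sensors numbered 0 with quantile normalisation, with array medians subtracted and with the block, and 0 to 2 without 1 array. Higher PERK branch genes, Eif2ak3 included, numbered 0 in the same 3 settings and 0 to 1 without 1 array. Lower PERK branch genes numbered 0 with the block and 0 to 1 without 1 array. Higher IRE1 substrates numbered 0 with quantile normalisation and with the block, and 0 to 1 without 1 array. Lower folding factors numbered 8 with quantile normalisation, and lower entry and export genes 1 with the block. Atf6 turned to 0.02 with array weights, and between -0.13 and 0.09 without 1 array, with 0.09 without tumour 4 and 0.04 without control liver 3. The cause of these shifts was not tested. Counts of all genes lay between 2763 and 3563 higher and between 2060 and 2995 lower, and the median change of all genes between -0.07 and 0.01.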
